A study of Mus musculus with 8 samples.

Results

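The tissue inhibitors of metalloproteinases were examined as 5 genes, Timp1, Timp2, Timp3, Timp4 and Reck, out of 30142 genes that had a transcript cluster with a single symbol. They were chosen by name, and each had 1 such cluster (the array's summary of the probes along a transcript), so no choice among clusters was needed. Each array measured an ascending aorta sample; the mice were male, 10 weeks of age, on the C57BL/6J background and bred from Fbn1mgR/+ parents. One group of 4 arrays came from Fbn1mgR/mgR mice (mgR611, mgR612, mgR613 and mgR614) and one of 4 from wild-type mice (WT675, WT676, WT742 and WT744). Fibrillin-1, the product of Fbn1, forms microfibrils outside the cell. The mgR allele is hypomorphic, lies in the germ line and serves as a model of severe Marfan syndrome. The labels name no agent for either group. Whether each array is a separate animal is not stated, so the p-values cover the spread among these samples alone, and part of it may be technical.

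Timps are small secreted proteins that bind the catalytic site of matrix metalloproteinases and hold them inactive. Timp3 is bound to the extracellular matrix and also inhibits several ADAM and ADAMTS proteases. Timp2 has a second role, since together with the membrane protease Mmp14 it takes part in the activation of pro-Mmp2. Timp1 is the inducible member in inflamed and injured tissue, and Reck is a membrane-anchored inhibitor that restrains several metalloproteinases at the cell surface. In the aortic wall the balance of these inhibitors and their targets is studied because metalloproteinases degrade elastin and collagen.

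Values are log2 signals as deposited, so a difference of 1 is a 2-fold difference, and differences are Fbn1mgR/mgR minus wild-type. Array medians lay between 3.95 and 4.07. Smooth muscle markers, of which 10 of 10 were tested, had list means from 12.3 to 13.4 in Fbn1mgR/mgR and from 13.0 to 13.8 in wild-type arrays. In limma 0 were called. At an unadjusted p below 0.05, 0 were higher and 2 were lower, Myh11 (-1.01) and Synpo2 (-0.99). The list leaned lower, with a median difference of -0.46 against -0.02 over all clusters tested, and 2 of the 10 were positive. Acta2, at -0.12, lay between 19.14 and 19.57. Fbn1 was not analysed here, and no check of the genotype against its own transcript was made. Brown fat markers stood apart in WT676 and mgR614, with list means of 10.6 and 10.3 against 6.25 to 8.10 in the other arrays. Macrophage markers differed between the genotypes, with means from 9.54 to 10.2 in Fbn1mgR/mgR and from 7.70 to 8.14 in wild-type arrays, and 13 of 15 rose. In bulk tissue, more cells of a type and more RNA per cell cannot be told apart. Olfactory receptor clusters, which serve as a reference for dim signals, had a 95th percentile of 4.13, and all 5 inhibitor genes lay above it on all 8 arrays.

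Of the 5 genes, Timp1 rose in the Fbn1mgR/mgR aorta and the other 4 did not pass an adjusted p of 0.05 (limma, adjusted over all 32957 clusters tested). Across all of these clusters 2.10% passed, 1.54% as higher and 0.558% as lower. The median difference over the 5 genes was -0.02, the same as the median over all clusters tested. In 2 of the 5, Timp1 and Reck, the arrays of the genotypes did not overlap, which held for 8.92% of all clusters tested, 5.26% as higher and 3.65% as lower. At an unadjusted p under 0.05 the same 2 genes stood out, 1 higher (7.45% of all clusters) and 1 lower (6.72%).

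**Figure D1:**
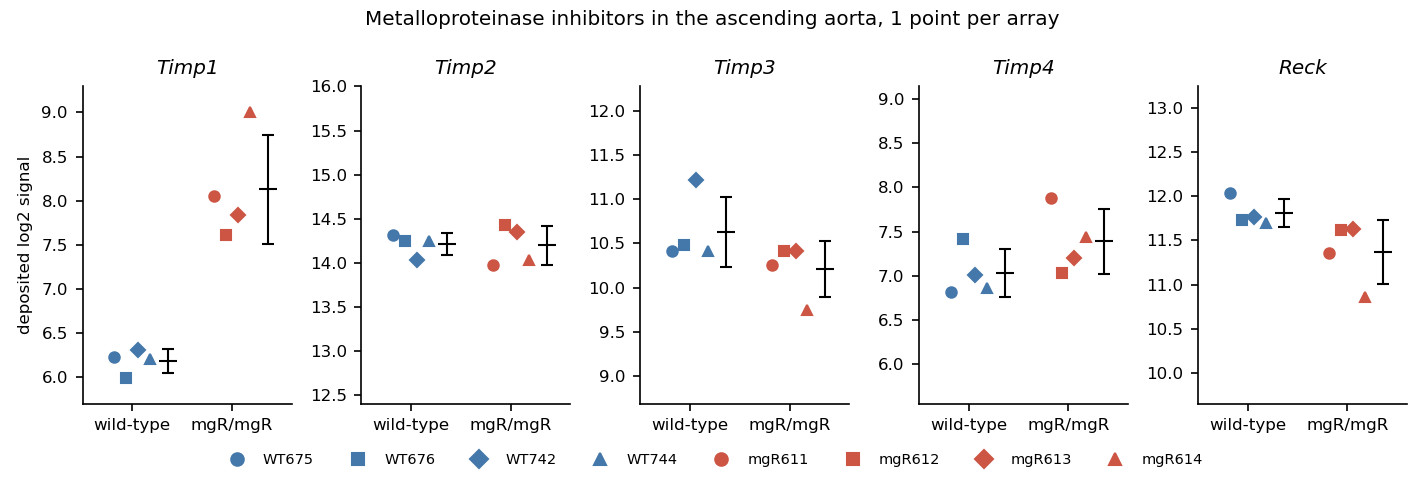
Deposited log2 signal (y axis) of the 5 inhibitor genes on each of 8 arrays, wild-type in blue and Fbn1mgR/mgR in red, with a marker shape for each array, the mean as a bar and the SD as the error bar (n = 4). Every panel spans the same number of log2 units. Timp1 lies at 7.61 to 9.01 in the mutant arrays, all above the wild-type arrays at 5.99 to 6.31.

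Timp1 is the secreted inhibitor induced by cytokines and growth factors. Its signal was 6.23, 5.99, 6.31 and 6.21 on the wild-type arrays WT675, WT676, WT742 and WT744. On the mutant arrays mgR611, mgR612, mgR613 and mgR614 it was 8.05, 7.61, 7.84 and 9.01. The lowest mutant array thus lay above the highest wild-type array, and mgR614 was the highest of all. The group means were 8.13 ± 0.615 and 6.19 ± 0.137 (log2, SD, n = 4 each), so the mutant arrays were also more spread. The difference was 1.94 (SE 0.271, 95% confidence interval 1.33 to 2.55, limma adjusted p = 0.00713), or 3.84-fold. Leaving out mgR614 gave 1.65, and the difference was 1.65 to 2.12 with adjusted p from 0.00351 to 0.0274 over the 8 fits that left out 1 array. Without both WT676 and mgR614, the arrays highest for brown fat, it was 1.58 (adjusted p = 0.0112).

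The Timp1 gene lies on chromosome X (GRCm38.p6, 20870166 to 20874737, plus strand) and overlaps Syn1, the synapsin gene in which it is nested. Its RefSeq promoter window, 250 bases before to 50 after the annotated start, is shown beside that of Timp2 because the first gene rose and the second did not pass. The windows are chrX:20869916-20870215 (plus strand) and chr11:118355362-118355661 (minus strand) of GRCm38.p6. Capitals mark matches on either strand to the motifs searched. For AP-1 factors these were the letters TGANTCA and, as a variant of that motif, TGAGTAA. The Ets family was searched with AGGAAG, the factor Sp1 with GGGCGG and the TATA box with TATAAA.
Timp1: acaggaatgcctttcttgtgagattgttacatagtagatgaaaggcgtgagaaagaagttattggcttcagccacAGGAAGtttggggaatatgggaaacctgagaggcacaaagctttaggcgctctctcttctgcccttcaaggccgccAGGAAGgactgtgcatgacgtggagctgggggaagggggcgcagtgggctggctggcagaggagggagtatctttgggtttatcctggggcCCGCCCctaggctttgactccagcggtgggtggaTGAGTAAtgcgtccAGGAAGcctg
Timp2: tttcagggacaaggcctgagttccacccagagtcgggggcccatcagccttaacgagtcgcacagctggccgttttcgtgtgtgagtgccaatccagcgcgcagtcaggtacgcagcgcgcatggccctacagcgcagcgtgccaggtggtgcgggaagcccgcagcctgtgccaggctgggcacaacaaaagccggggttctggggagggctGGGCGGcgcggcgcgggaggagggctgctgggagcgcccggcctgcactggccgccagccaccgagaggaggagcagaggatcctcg
The Timp1 window held TGAGTAA once, starting at base 27 after the start, a sequence present in 2.68% of 32851 windows of the same length. AGGAAG began at bases -175, -99 and 41 (35.4% of all windows held at least 1 match), and GGGCGG on the opposite strand at -8 (35.7% of windows). In the Timp2 window the only match was GGGCGG at -37. The windows not shown also held matches. AGGAAG began at -204 for Timp3 and, on the opposite strand, at -111 for Timp4. Counting both strands, GGGCGG began at -15 and 14 for Timp3 and at -92, -55 and -4 for Reck. The Reck window, chr4:43875280-43875579, is placed on a start that lies after the first base of the gene span, 43875521. Its positions count from the start used for the window. None of the 5 inhibitor genes had TGANTCA (7.81% of windows) or TATAAA (13.6% of windows) in this window, and no matches overlapped. GC content was 55.0% for Timp1 and 53.3% for Timp4 against 68.7%, 67.0% and 69.3% for Timp2, Timp3 and Reck, with a median of 52.7% over all windows. A match is a description of the letters. The motifs were a chosen set, so the shares of windows are given for scale and do not test a match. No binding was measured.

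Timp2, the inhibitor that also takes part in pro-Mmp2 activation, lies on chromosome 11 (118301061 to 118355411, minus strand). Its signals were 14.32, 14.25, 14.03 and 14.25 in WT675, WT676, WT742 and WT744, and 13.98, 14.43, 14.35 and 14.03 in mgR611, mgR612, mgR613 and mgR614. The genotypes overlapped fully, and the whole spread over 8 arrays was 0.45. The difference was -0.02 (SE 0.132, 95% confidence interval -0.31 to 0.28, limma adjusted p = 0.981), so the interval bounds any change to between 0.806-fold and 1.21-fold. Its sign turned with the setting, from -0.09 to 0.06 over the fits that left out 1 array and at 0.02 after quantile normalization.

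Timp3, the matrix-bound inhibitor, lies on chromosome 10 (86300412 to 86349505, plus strand) and overlaps Syn3. WT675, WT676, WT742 and WT744 had signals of 10.41, 10.48, 11.22 and 10.41, and mgR611, mgR612, mgR613 and mgR614 had 10.26, 10.41, 10.42 and 9.75. One array in each genotype stood apart, WT742 on the high side and mgR614 on the low side, and the other 6 lay within 10.26 to 10.48. The difference was -0.42 (SE 0.228, 95% confidence interval -0.93 to 0.09, limma adjusted p = 0.465). Without WT742 it was -0.22, and without mgR614 it was -0.27. Smooth muscle markers had their lowest list mean in mgR614 (12.3) and their highest in WT742 (13.8), and the part of this in the Timp3 values was not tested.

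Timp4, whose gene on chromosome 6 (115244444 to 115252205, minus strand) overlaps Syn2, is the member with the most restricted expression among tissues. The wild-type signals were 6.82, 7.42, 7.01 and 6.86 in WT675, WT676, WT742 and WT744, and the mutant signals 7.88, 7.03, 7.20 and 7.44 in mgR611, mgR612, mgR613 and mgR614. The groups overlapped, with the highest value in mgR611. Means were 7.39 ± 0.369 and 7.03 ± 0.274 (log2, SD, n = 4 each), with a difference of 0.36 (SE 0.209, 95% confidence interval -0.11 to 0.83, limma adjusted p = 0.504), and without mgR611 it was 0.20. WT676 and mgR614, the arrays highest in brown fat markers, were the highest of the wild-type and the second highest of the mutant arrays for Timp4, and without both the difference was 0.47 (adjusted p = 0.507).

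Reck, the membrane-anchored inhibitor, lies on chromosome 4 (43875521 to 43944806, plus strand). Its signals were 12.04, 11.73, 11.77 and 11.70 in WT675, WT676, WT742 and WT744, and 11.36, 11.62, 11.63 and 10.86 in mgR611, mgR612, mgR613 and mgR614. Every mutant array lay below every wild-type array, but the gap between the nearest arrays was small, 11.63 against 11.70. Means were 11.4 ± 0.361 and 11.8 ± 0.156 (log2, SD, n = 4 each). The difference was -0.44 (SE 0.187, 95% confidence interval -0.86 to -0.02, unadjusted p = 0.0407, limma adjusted p = 0.32), and it did not pass the threshold over all clusters. Without mgR614, the lowest array, the difference was -0.27 (adjusted p = 0.515).

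The responses of the 5 genes were compared with each other as the within-array difference of 2 genes, tested with an exact two-sided permutation test over 70 labellings in 10 pairs. The response of Timp1 exceeded that of Timp2 by 1.96, of Timp3 by 2.36, of Timp4 by 1.58 and of Reck by 2.38. For each of these 4 pairs all mutant arrays lay above all wild-type arrays (exact permutation p = 0.0286, the lowest possible value with 4 arrays a group; 0.0571 after Benjamini-Hochberg adjustment over the 10 pairs, so no pair passed 0.05). Timp2 and Reck also separated, by 0.43, with the same p-values. With only these 5 pairs at the lowest possible p, no size of difference could have brought their adjusted p below 0.0571. The other 5 pairs had adjusted exact p-values from 0.122 to 0.886. Timp3 and Reck had nearly the same difference between genotypes (0.02 apart), and among the mutant arrays the within-array value of Timp3 minus Reck was -1.21 to -1.10, against -1.63 to -0.55 among the wild-type arrays.

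**Figure D2:**
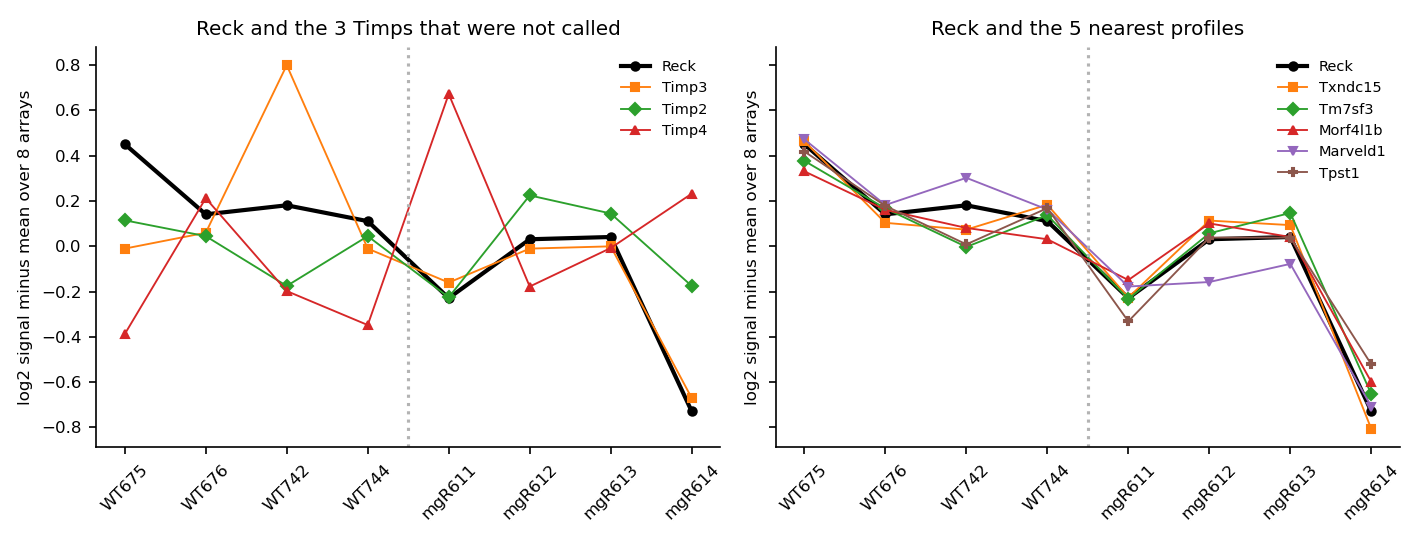
Log2 signal minus each gene's mean over the 8 arrays (y axis) for every array (x axis), wild-type left and Fbn1mgR/mgR right of the dotted line. The left panel shows Reck with Timp2, Timp3 and Timp4, and the right panel Reck with its 5 nearest profiles. Timp3 follows Reck in the 4 mutant arrays, both lowest in mgR614, and departs from it in WT742, where Timp3 reaches 11.22, and in WT675, where Reck reaches 12.04.

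Genes with the most similar pattern were found by the mean absolute difference between 2 profiles over the 8 arrays, each centred on its own mean, among 13263 other genes, for the 4 inhibitors that spanned at least 1 log2 unit. For Timp1 the nearest were Cd53 (0.192), Il4ra (0.209), Tlr13 (0.217), Fcgr4 (0.232) and Klrb1b (0.246), against a median of 0.969 over all genes. Cd53 encodes a leukocyte tetraspanin, Il4ra the interleukin-4 receptor alpha chain, Tlr13 a Toll-like receptor and Fcgr4 an immunoglobulin receptor of myeloid cells. Their differences between genotypes were 2.02, 1.66, 1.8, 2.24 and 2.12 in that order, a direction fixed by the choice of profiles near that of Timp1. The wild-type values of Fcgr4 (3.82 to 4.45), Klrb1b (4.13 to 4.36) and Tlr13 (4.15 to 4.45) lay near the dim reference of 4.13. Like Timp1, Cd53 (8.55), Il4ra (10.45), Tlr13 (6.56) and Fcgr4 (7.22) were highest in mgR614, while Klrb1b was highest in mgR613 (6.67). The lowest mutant array was mgR612 for Timp1, Il4ra (8.93), Fcgr4 (5.45) and Klrb1b (6.14), mgR613 for Cd53 (7.93) and mgR611 for Tlr13 (5.81). Such likeness is part of how the profiles were chosen. The call of Il4ra was lost without mgR611 or any wild-type array (limma adjusted p from 0.0668 to 0.0889).

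Marker levels are given beside the Timp1 result. Macrophage markers had their highest mutant mean in mgR612 (10.2), the array with the lowest mutant Timp1, and a mean of 9.77 in mgR614, the array with the highest. Single markers of this list differed in their highest array. It was mgR614 for Itgam, Fcgr1 and Ms4a7, mgR613 for Lyz2, mgR611 for Mertk and mgR612 for the rest. Fibroblast marker means were 12.1 to 12.8 in Fbn1mgR/mgR against 12.3 to 12.5 in wild-type arrays, with 1 of 9 higher, Col1a1 (0.98, limma adjusted p = 0.00837), while with an unadjusted p below 0.05 the counts were 3 and 1. Endothelial markers had means of 9.51 to 10.4 and 10.1 to 10.8, with 1 of 9 lower, Erg (-1.21, adjusted p = 0.0447), and 3 lower at an unadjusted p below 0.05. B cell markers had means of 4.33 to 5.29 and 4.07 to 4.22, which did not overlap. Of the 5 tested, 1 was higher, Fcrla (1.08, adjusted p = 0.0209), and 4 were at an unadjusted p below 0.05. Ms4a1, counted among the 4, and Pax5 had wild-type means of 3.95 and 3.93, below the dim reference. Both passed the signal filter through the mutant arrays, so the size of their differences is uncertain. The wild-type list means also lay near the dim reference. Neutrophil markers had means of 4.35 to 5.99 and 4.30 to 5.37 with 0 of 10 called in limma and 0 of 10 at an unadjusted p below 0.05. The part of any of these in the Timp1 result was not tested.

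**Figure D3:**
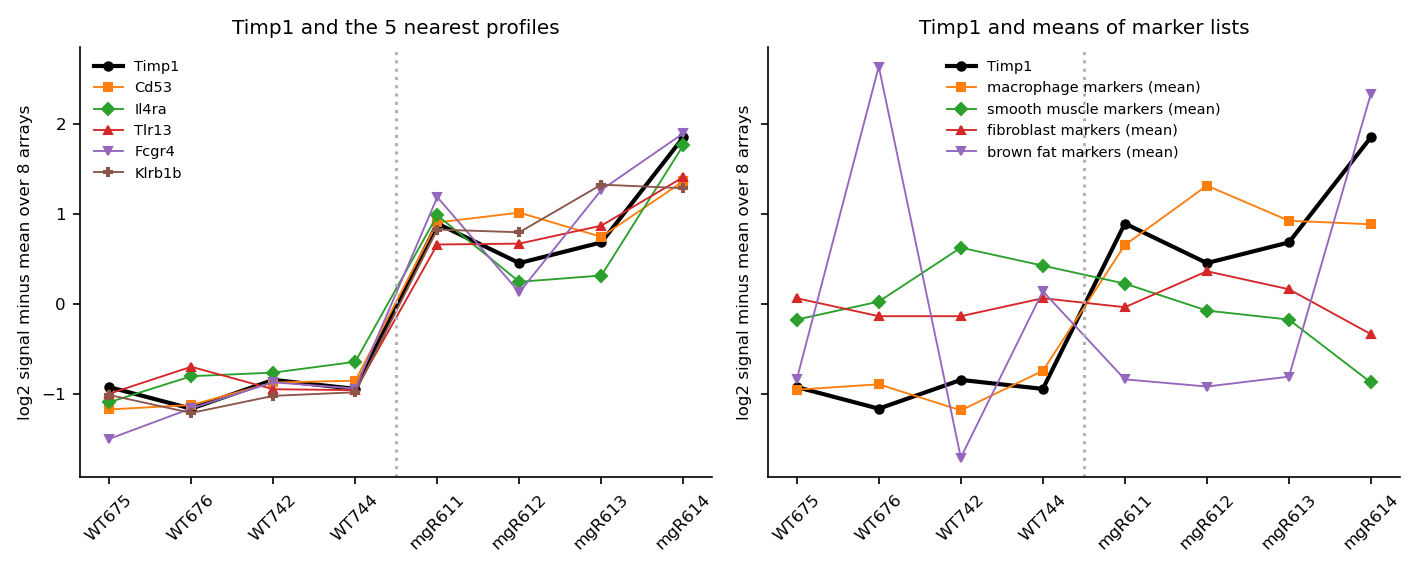
Log2 signal minus the mean over the 8 arrays (y axis) for every array (x axis), wild-type left and Fbn1mgR/mgR right of the dotted line. The left panel shows Timp1 with its 5 nearest profiles, and the right panel Timp1 with the means of 4 marker lists. Timp1 and the macrophage mean are both high in all mutant arrays. The highest array is mgR614 for Timp1 and mgR612 for the macrophage mean, and the order within the mutant arrays was not tested.

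For Timp3 the nearest profiles were Purg (0.0947), Garem1 (0.115), Galnt16 (0.117), Nox4 (0.118) and Tlcd5 (0.120), against a median of 0.302. Their differences between genotypes were -0.33 to -0.59. Nox4 is an NADPH oxidase of vascular smooth muscle. Reck was closest to Txndc15 (0.0556), Tm7sf3 (0.0653), Morf4l1b (0.0750), Marveld1 (0.0769) and Tpst1 (0.0775), against a median of 0.285. Morf4l1b has a near-identical relative, so its value is uncertain. The nearest to Timp4 were Tsr1 (0.114), Mrps18b (0.128), Mcat (0.129), Trgv5 (0.129) and Hipk2 (0.138), with differences of 0.19 to 0.39.

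Among the matrix metalloproteinases, the main targets of the inhibitors, 3 of the 13 tested rose and 1 fell (limma; 5 and 2 with an unadjusted p below 0.05), and 22 of the 23 listed had a cluster with 1 symbol. Their median difference was 0.38, and 1 was higher and 0 lower without both WT676 and mgR614. Mmp12, macrophage elastase, rose by 2.27 (SE 0.275, limma adjusted p = 0.00385), from 5.79 to 6.70 on the wild-type to 7.81 to 9.02 on the mutant arrays. Mmp13, a collagenase, rose by 0.92 (adjusted p = 0.0185), but its adjusted p was 0.0510 to 0.0529 when mgR614, WT675, WT742 or WT744 was left out. Mmp19 rose by 0.84 (adjusted p = 0.012). The fall of 0.86 in Mmp27 (adjusted p = 0.048) was lost without any single array except WT676, with adjusted p from 0.0665 to 0.138. Over all alternatives Mmp27 kept its call in 8 of 21. Mmp3, stromelysin-1, had a difference of 1.85 that did not pass (adjusted p = 0.0888), with overlapping groups at 12.49 to 14.09 in Fbn1mgR/mgR and 10.46 to 12.65 in wild-type. Mmp16 leaned lower, by -0.58, and did not pass either (limma adjusted p = 0.0534). Its mutant arrays, at 5.31 to 5.71, all lay below the wild-type arrays, at 5.93 to 6.21. Without both WT676 and mgR614, Mmp13 (adjusted p = 0.0644), Mmp19 (0.0849) and Mmp27 (0.0644) missed the threshold, and Mmp12 kept it (0.00709).

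The partners of Timp2 in pro-Mmp2 activation are given here for their role. Mmp14, the membrane protease, lay at 8.90, 9.84, 9.23 and 8.87 in mgR611, mgR612, mgR613 and mgR614, above the wild-type arrays at 8.38 to 8.54. Its difference was 0.73 (SE 0.211, limma adjusted p = 0.137) and did not pass. Mmp2, gelatinase A, overlapped between the genotypes, from 9.54 to 10.88 in Fbn1mgR/mgR and from 9.05 to 10.20 in wild-type arrays, with a difference of 0.40 (adjusted p = 0.687). Timp2 itself, as given earlier, differed by -0.02.

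**Figure D4:**
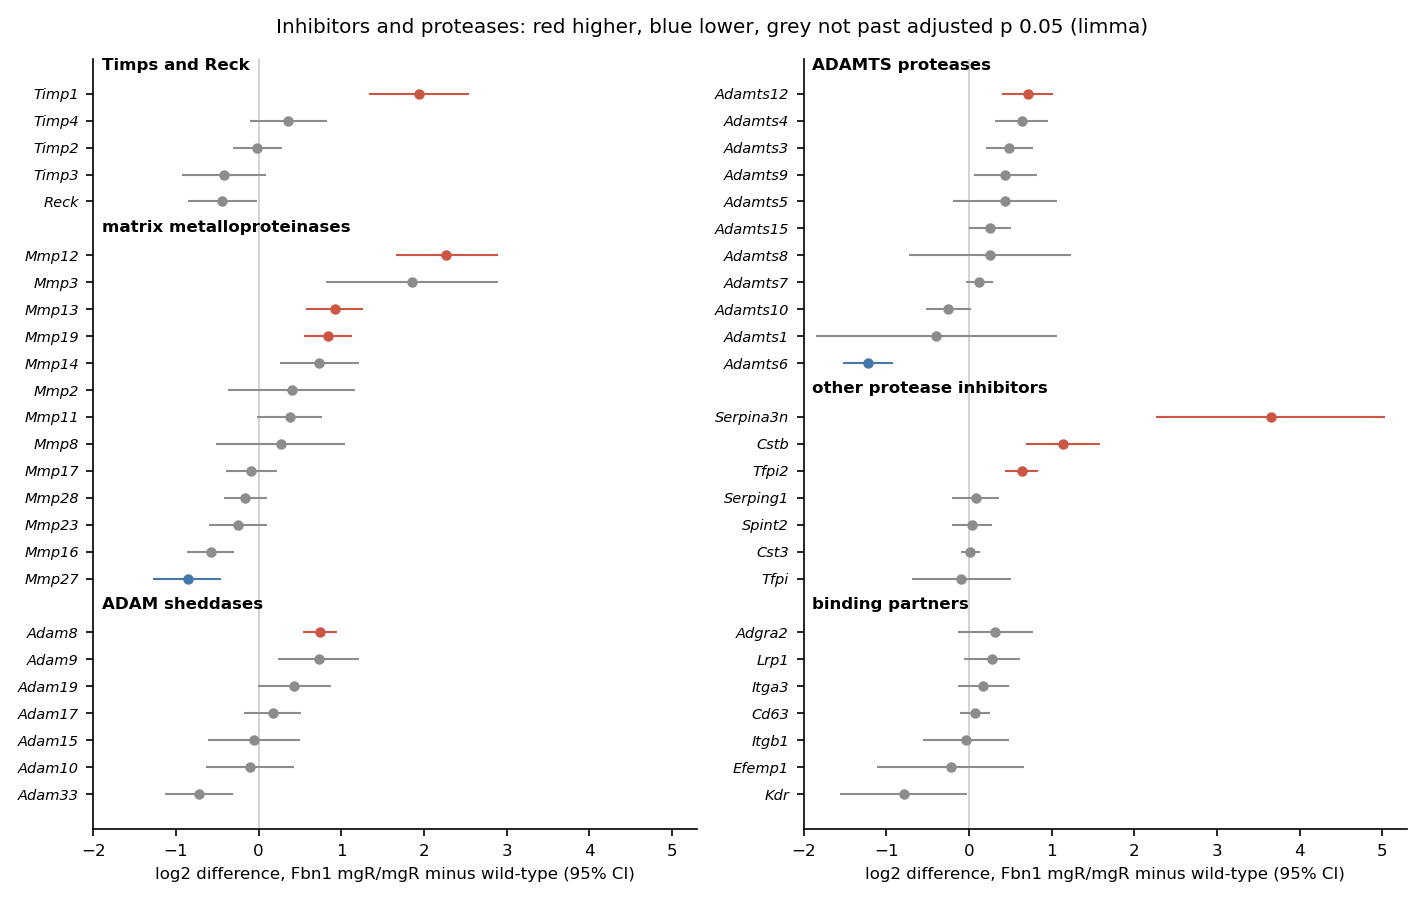
Log2 difference, Fbn1mgR/mgR minus wild-type (x axis), with its 95% confidence interval from limma, for each tested gene of the inhibitors, their protease targets, other protease inhibitors and binding partners (n = 4 arrays a genotype). Red marks genes called higher and blue genes called lower at an adjusted p under 0.05. Timp1 (1.94) stands beside Mmp12 (2.27) and Serpina3n (3.65), while the intervals of Timp2, Timp3 and Timp4 include 0 and that of Reck ends at -0.02.

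Of the ADAM sheddases, membrane proteases of which several are inhibited by Timp3, 1 of 7 tested rose and 0 fell in limma (with an unadjusted p below 0.05, 1 was lower and 2 were higher), with a median of 0.17. The riser was Adam8, a protease of leukocytes, with a difference of 0.74 (SE 0.0914, limma adjusted p = 0.00421). Adam33 (-0.72, adjusted p = 0.092), Adam9 (0.73, adjusted p = 0.151) and Adam19 (0.43, adjusted p = 0.362) did not pass, although Adam33 did without WT742 (-0.88, adjusted p = 0.034), and Adam19 was at 0.23 without mgR612. Adam17 and Adam10, the widely expressed sheddases, had differences of 0.17 and -0.10. Of 11 ADAMTS proteases tested, which include the aggrecanases held in check by Timp3, 1 rose and 1 fell, with a median of 0.25. At an unadjusted p below 0.05 in limma, 4 were higher and 1 was lower. Adamts6 fell by 1.22 (SE 0.136, adjusted p = 0.00285), and Adamts12 rose by 0.71 (adjusted p = 0.0324). Adamts12 missed the threshold without any single array except WT676, with adjusted p from 0.0557 to 0.098, and without both WT676 and mgR614 (0.0667). It also missed 0.05 with no filter (0.0634) and with median centring (0.0569), and kept its call in 11 of 22 alternatives. Adamts4, an aggrecanase, was at 0.64 (adjusted p = 0.0595) and Adamts3 at 0.49 (adjusted p = 0.09). Adamts4 passed without mgR613 (0.0344), with only clusters of 1 symbol (0.0452), with quantile normalization (0.0398), with median centring (0.0303) and with the lower quartile covariate (0.0106), and its wild-type mean of 4.12 was below the dim reference.

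The other protease inhibitors held 3 genes that rose and 0 that fell among 7 tested, with a median of 0.08 (limma; at an unadjusted p below 0.05 the counts were 3 and 0). Serpina3n, a serine protease inhibitor of the acute phase, rose by 3.65 (SE 0.616, limma adjusted p = 0.0187), and like Timp1 it was highest in mgR614, at 14.14. Leaving out WT675, WT676 or WT744 took it to an adjusted p of 0.0527 to 0.0615. Cstb, cystatin B, an intracellular cathepsin inhibitor, rose by 1.14 (adjusted p = 0.0215), but its adjusted p was 0.0544 to 0.0742 when mgR613, mgR614 or any wild-type array but WT675 was left out. Tfpi2, a Kunitz-type inhibitor, was called higher (adjusted p = 0.0074), at 4.29 to 4.55 in Fbn1mgR/mgR against 3.63 to 3.84 in wild-type. All 4 wild-type arrays lay below the dim reference of 4.13, so the size of the difference is uncertain. The gene passed the signal filter of 4.01 through the mutant arrays, and without mgR613 it was below the filter. Leaving out both WT676 and mgR614 left 0 of the 7 called, with adjusted p of 0.0516 for Serpina3n, 0.119 for Cstb and 0.0566 for Tfpi2. Serping1, the C1 inhibitor, did not pass (0.08, adjusted p = 0.862; 0.00 to 0.15 when 1 array was left out), and Cst3, cystatin C, lay at 17.92 to 17.97 on all arrays.

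Of 7 binding partners tested, 0 passed in limma, with a median of 0.07 (at an unadjusted p below 0.05, 0 were higher and 1 was lower). Cd63, a tetraspanin that binds Timp1 at the cell surface, had a difference of 0.07 with a mutant range of 15.63 to 15.69. Lrp1, the receptor that takes up Timps and their complexes, was at 0.28 (limma adjusted p = 0.47), Itga3 at 0.17 (0.645) and Adgra2, which acts with Reck in Wnt7 signalling, at 0.32 (0.543). Leaving out mgR612 took Adgra2 to 0.12 and Lrp1 to 0.17, and leaving out mgR611 took Itga3 to 0.08. Kdr, the growth factor receptor that Timp3 can block, was at -0.79 (adjusted p = 0.337).

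Among 16 tested genes for cytokines, receptors and transcription factors that are known to act on Timp1 transcription, 1 rose and 0 fell in limma, with a median of 0.34 (at an unadjusted p below 0.05 the counts were 6 and 0). Osmr, the oncostatin M receptor, rose by 1.16 (SE 0.224, limma adjusted p = 0.0326), from 9.65 to 10.05 on the wild-type to 10.26 to 11.25 on the mutant arrays. Its call was lost without any single array except mgR612, with adjusted p from 0.0506 to 0.104, and without both WT676 and mgR614 (0.188). Over all alternatives Osmr kept its call in 11 of 22. The cytokine gene Il1b had a difference of 1.70 (adjusted p = 0.0522), which passed when mgR612 was left out (0.0255), with only clusters of 1 symbol (0.0393), with median centring (0.0423) and with the brown fat (0.0463) or lower quartile covariate (0.043). The wild-type arrays of Il1b, at 4.01 to 4.89, reached below the dim reference of 4.13. Runx1, a transcription factor, was at 0.68 (adjusted p = 0.0594) and passed without WT744 (0.0401), with only clusters of 1 symbol (0.0451) or above the upper quartile (0.0434), and without the intensity trend (0.0443). Il6, interleukin-6, had signals of 5.20, 4.19, 5.57 and 7.94 in mgR611, mgR612, mgR613 and mgR614 against 3.49 to 3.96 in the wild-type arrays. The wild-type arrays lay below the dim reference of 4.13, so Il6 passed the signal filter through the mutant arrays and the size of its difference is uncertain. The fitted 2.04 did not pass (adjusted p = 0.175) and was 1.30 without mgR614. Among the mutant arrays Il6 was highest in mgR614 and lowest in mgR612, as were Timp1 and Il1b. Osmr was also lowest in mgR612 (10.26) but was highest in mgR611 (11.25, against 11.19 in mgR614). Runx1 was also highest in mgR614 (6.58) but was lowest in mgR613 (6.19). Whether any of these orders is related to that of Timp1 was not tested. Of the AP-1 genes, Fos, Fosb, Fosl1, Fosl2, Jun and Jund had none past the threshold in limma, with Fosl1 alone at an unadjusted p under 0.05 (0.32, unadjusted p = 0.0323, adjusted p = 0.29) and its wild-type mean of 4.04 below the dim reference.

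The genes around the inhibitors were examined because nested genes could share signal. Syn1 and Syn3, which overlap Timp1 and Timp3, were below the signal filter, with means of 3.89 and 3.74 in Fbn1mgR/mgR against 3.86 and 3.89 in wild-type. Syn2, which overlaps Timp4, had a difference of -0.07 (limma adjusted p = 0.801), and Cep295nl, which overlaps Timp2, was not analysed here. Of the 30 genes that flank the inhibitors, 3 on each side, 11 were tested, and 2 of these rose. Cfp, properdin of the complement system and the nearest gene to the right of Timp1, rose by 1.83 (adjusted p = 0.0142), while Araf and Elk1 nearby had differences of -0.11 and -0.04. Glipr2, on the right of Reck, rose by 0.72 (adjusted p = 0.00973), opposite in sign to the Reck difference of -0.44. Cfp and Glipr2 missed the threshold without both WT676 and mgR614, at adjusted p = 0.116 and 0.0812.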

How the data were processed

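RNA from 8 ascending aorta samples was measured on Affymetrix Clariom D mouse arrays, per the labels. The authors deposited log2 signals for each transcript cluster. Per the submitters' processing notes they used the Transcriptome Analysis Console; how it normalized the arrays is not given in the sources used here. Clusters carrying 1 symbol in the platform annotation (30604 of 65956) were named, with 827 symbols updated through RefSeq (GRCm38.p6), and the brightest stood for a gene with several.

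Differences were fitted with limma 3.58.1 under R 4.3.3, using lmFit and then eBayes with a trend on intensity. The variance prior came from all clusters, and p-values were Benjamini-Hochberg adjusted over the 32957 clusters with a mean signal above the median of 4.01. The fit was tested on simulated data. Exact permutation tests used scipy 1.17.1 in Python 3.11.15, and promoter windows came from RefSeq. The precision is limited by the number of arrays.

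Named genes were the 5 inhibitors, the genes of each list past the threshold or otherwise up to 4 with the smallest p, the 5 nearest profiles, overlapping genes and called neighbours, leaving out predicted models. Outside this rule, Mmp2, Mmp3, Mmp14, Mmp16, Adam10, Adam17, Cd63, Cst3, Araf, Elk1, the AP-1 genes and single cell type markers were named after their values were seen. The members and lists were chosen with earlier results of these data known. Alternatives changed the variance prior, array weights, filter, rows tested, normalization, threshold, a brown fat or lower quartile covariate and the arrays used.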

Additional observations from a re-analysis of the deposited data

Results flagged for a closer look

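Values far from the other 3 arrays of their group were looked for in 104 groups of 4 by Dixon's ratio of the gap to the range, whose critical value chance exceeds in about 5% of groups, and 9 were found. Timp3 in WT742 was at 11.22, with the next array at 10.48 and a gap of 0.914 of the range. The same array held the highest Osmr (10.05) and the lowest Serping1 (13.09) of the wild-type group. Tsr1 (6.83) and Tlr13 (4.45) were highest in WT676 among the wild-type arrays, and Adamts6 (6.93) was lowest in WT744. Among the mutant arrays, Marveld1 (11.27) and Tlcd5 (5.68) were lowest in mgR614 and Adam19 (6.96) was highest in mgR612. Timp1 in mgR614 did not exceed the critical value.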

How the results depend on the processing

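Timp1 kept its direction and its call under all 22 alternatives tried (1.58 to 2.12, limma adjusted p from 0.00351 to 0.0274), and Timp3, Timp4 and Reck stayed on the same side of the threshold and of 0 in all 22. Timp2, at -0.02, turned to 0.02 with array weights, to 0.02 with quantile normalization and to 0.05 without both WT676 and mgR614, and ranged from -0.09 to 0.06 over the fits that left out 1 array; none passed. In the pairs of genes, the difference between Timp3 and Reck ranged from -0.13 to 0.23 when 1 array was left out, while the other 9 pairs kept their sign. The number of clusters higher was 187 and 816, and the number of clusters lower 40 and 393, at adjusted p thresholds of 0.01 and 0.1. Leaving out 1 array gave 272 to 521 higher and 67 to 146 lower clusters, fewer arrays being fitted, and leaving out both WT676 and mgR614, highest for brown fat, gave a number of clusters higher of 172 and a number of clusters lower of 77. With no filter the number of clusters lower was 99, over more clusters tested. Among the lists, the matrix metalloproteinases had 1 to 4 higher and 0 to 2 lower over all alternatives, and 0 to 3 were higher among each of the ADAMTS proteases, the other protease inhibitors and the Timp1 regulators (the last kept its count of 1 in 4 of 22). The variance prior from the tested clusters only, the fit without both arrays high in brown fat markers and the lower quartile covariate were chosen after the data were seen. Quantile normalization and median centring moved the median of all differences by less than 0.1. No other rows of the inhibitors could be tried, since each had 1. No paired analysis was possible because the groups share 0 replicate numbers. With 4 arrays a group, small differences such as that of Reck could not be settled.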
